A study of Mus musculus with 10 samples.

Results

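The genes of cholesterol and lipid synthesis were followed across 5 mouse stem cell cultures on 10 gene expression arrays. The list was made by name and held 33 genes. Of these, 31 had a probe set assigned to a single gene symbol, out of 19938 such genes on the array, and a gene with several probe sets was represented by its brightest on average. Acat2, the cytosolic acetyl-CoA acetyltransferase, and Soat1, which esterifies cholesterol for storage, were not analysed here. The 31 genes comprised 17 enzymes of sterol synthesis, 5 regulators of the pathway, 5 genes of sterol transport and export, and 4 enzymes of fatty acid synthesis.

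Cultured cells make cholesterol from acetyl-CoA by the mevalonate pathway, which runs through mevalonate, isoprenoids, squalene and lanosterol to cholesterol. Transcription of its enzymes is set by the sterol regulatory element-binding proteins (SREBPs, encoded by Srebf1 and Srebf2). The escort protein Scap carries SREBPs to the Golgi for activation when membrane sterol is low, and the Insig proteins hold them back in the endoplasmic reticulum when sterol is plentiful. SREBPs also drive fatty acid synthesis, while liver X receptors, which sense oxysterols, drive export genes such as Abca1 and Abcg1. The brain makes nearly all of its own cholesterol, since plasma lipoproteins do not cross the mature blood-brain barrier.

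The cultures were 1 series derived from a single embryonic stem (ES) cell line and 1 primary culture. The mESC culture was R1, an ES line of 129/Sv origin, kept on mouse embryonic fibroblast feeders made non-dividing with mitomycin C, in 15% fetal bovine serum with 1000 U/ml Lif. The p-NSC_L culture was the primary passage of primitive neural stem cells, spheres formed by R1 cells without serum in N2 supplement and 1000 U/ml Lif. The p-NSC_LF culture was their secondary passage, with 1000 U/ml Lif, 10 ng/ml FGF and 2 µg/ml heparin. The d-NSC culture was definitive neural stem cells, obtained by moving primitive ones into N2 and B27 supplements with 20 ng/ml EGF, 20 ng/ml FGF and 2 µg/ml heparin, without Lif. The CNS-NSC culture was wild-type neural stem cells from the frontal lobes of E11.5 ICR mouse embryos, grown in N2, 20 ng/ml EGF, 20 ng/ml FGF and 2 µg/ml heparin, with no B27 named. Serum and feeders were stated for mESC alone, and B27 for d-NSC alone. Strain and origin differed between CNS-NSC and the R1-derived cultures. None of these can be told apart from the cell type. Each group had 2 biological replicates, per the series' design text.

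The promoters of 5 of the genes are shown first, because SREBPs and their partner NF-Y act through short motifs near the start of transcription. They are the 3 sterol synthesis enzymes with the largest differences between d-NSC and CNS-NSC (Hmgcs1, Idi1 and Dhcr7) and the paralogues Insig1 and Insig2, whose levels moved in opposite directions. The sequences are RefSeq's, in build GRCm38.p6, and each covers 300 bases around the annotated start, read 5′ to 3′ on the gene's strand. Capitals mark the sterol regulatory element TCACNCCAC and the NF-Y box CCAAT, which reads ATTGG where it lies on the other strand.
Hmgcs1 promoter, chr13:119690101-119690400, plus strand: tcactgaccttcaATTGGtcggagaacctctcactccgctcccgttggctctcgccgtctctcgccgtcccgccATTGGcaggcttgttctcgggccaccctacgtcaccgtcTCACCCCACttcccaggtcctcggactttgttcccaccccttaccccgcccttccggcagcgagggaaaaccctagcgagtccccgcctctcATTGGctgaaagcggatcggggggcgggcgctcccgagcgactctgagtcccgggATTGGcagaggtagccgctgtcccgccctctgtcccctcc
Idi1 promoter, chr13:8885356-8885655, plus strand: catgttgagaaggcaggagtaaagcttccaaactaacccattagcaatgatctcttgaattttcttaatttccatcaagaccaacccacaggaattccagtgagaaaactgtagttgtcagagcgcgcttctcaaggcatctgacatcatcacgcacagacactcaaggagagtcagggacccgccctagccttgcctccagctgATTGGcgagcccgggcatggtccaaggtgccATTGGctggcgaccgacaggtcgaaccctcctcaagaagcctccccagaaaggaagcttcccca
Dhcr7 promoter, chr7:143829964-143830263, plus strand: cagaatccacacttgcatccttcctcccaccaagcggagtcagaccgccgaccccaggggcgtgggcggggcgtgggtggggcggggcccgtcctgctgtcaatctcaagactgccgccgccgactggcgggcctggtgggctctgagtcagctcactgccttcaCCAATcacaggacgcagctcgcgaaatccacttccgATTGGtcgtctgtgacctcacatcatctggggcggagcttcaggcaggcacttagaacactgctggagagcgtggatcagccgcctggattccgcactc
Insig1 promoter, chr5:28071162-28071461, plus strand: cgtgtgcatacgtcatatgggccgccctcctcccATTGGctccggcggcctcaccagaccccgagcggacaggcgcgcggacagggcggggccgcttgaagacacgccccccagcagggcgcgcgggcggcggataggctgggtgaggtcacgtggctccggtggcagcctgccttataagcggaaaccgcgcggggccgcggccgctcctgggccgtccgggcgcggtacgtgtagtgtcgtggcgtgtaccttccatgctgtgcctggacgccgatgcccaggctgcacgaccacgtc
Insig2 promoter, chr1:121332540-121332839, minus strand: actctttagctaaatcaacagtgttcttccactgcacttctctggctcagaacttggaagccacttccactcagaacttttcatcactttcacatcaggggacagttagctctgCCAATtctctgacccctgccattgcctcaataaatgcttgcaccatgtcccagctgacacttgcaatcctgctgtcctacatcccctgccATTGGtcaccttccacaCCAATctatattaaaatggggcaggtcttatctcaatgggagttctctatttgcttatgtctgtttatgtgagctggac
Dhcr7 and Insig2 each had 3 promoters in the RefSeq table, and the one with the most motif matches is printed. The Hmgcs1 promoter held 1 sterol regulatory element, at position -137 from the annotated start, and 4 NF-Y boxes. Insig1 held 1 NF-Y box and 3 Sp1 boxes (GGGCGG), and the Insig2 promoter shown held 3 NF-Y boxes and 0 Sp1 boxes. The other 2 promoters of Insig2 each held 1 Sp1 box and no NF-Y box, so any contrast with Insig1 depends on the promoter chosen. No capital motif overlapped another.

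Promoters were found for 23 of the 31 genes, 31 promoters in all, and both strands were searched. CCAAT occurred in 82.4% of the 17 promoters of sterol synthesis enzymes and in 37.4% of the 32851 promoters of the table. All 14 sterol synthesis enzymes with a promoter held it in at least 1 promoter. GGGCGG occurred in 82.4% of the sterol synthesis promoters and in 35.7% of all promoters. The E-box CACGTG occurred in 17.6% of them and in 7.15% of all, and TCACNCCAC in 5.88% of them, which was Hmgcs1 alone, and in 1.24% of all. Only exact matches were counted, with N as any base, so variant forms of an element and those outside the windows were not seen. These matches describe the letters in the windows and were not tested against the expression values.

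The values are log2 intensities, and a difference of 1 is a 2-fold change. Differences are given ± SE from limma, fitted over all 10 arrays with 2 arrays in each group, and a gene is said to rise or fall where its p-value, adjusted over all 19938 genes by the Benjamini-Hochberg method, was below 0.05. Replicates correlated at r = 0.9885 to 0.9972 over the genes of the array, which are not independent of each other. The median gap between replicates over the 31 genes was 0.07 in d-NSC and p-NSC_LF, 0.12 in mESC, 0.21 in p-NSC_L and 0.25 in CNS-NSC. Against mESC none of 9 ES cell markers fell in p-NSC_L, where 1 rose, or in p-NSC_LF, where 2 rose. All 9 fell in d-NSC against p-NSC_LF. Yet Pou5f1, the ES cell transcription factor, still stood at 11.15 and 10.94 in d-NSC, against 6.97 and 6.92 in CNS-NSC. The mean of 11 neural stem and progenitor markers was 11.33 and 11.32 in d-NSC, 11.78 and 11.64 in CNS-NSC, and 9.18 to 9.39 in the other cultures.

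Across the 5 cultures, 31 of the 31 genes differed by limma's moderated F test at an adjusted p below 0.05, which 57.7% of all genes did. The order was led at one end by CNS-NSC and at the other by d-NSC. For 25 of the 31 genes both CNS-NSC arrays lay above the other 8 arrays, a pattern that 16.2% of all genes had. For 16 of the 31 genes both d-NSC arrays lay below the other 8, against 9.89% of all genes. CNS-NSC had the highest mean for 80.6% of the 31 genes and for 28.6% of all genes, and d-NSC the lowest for 54.8% of the 31 and 22% of all.

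**Figure D1:**
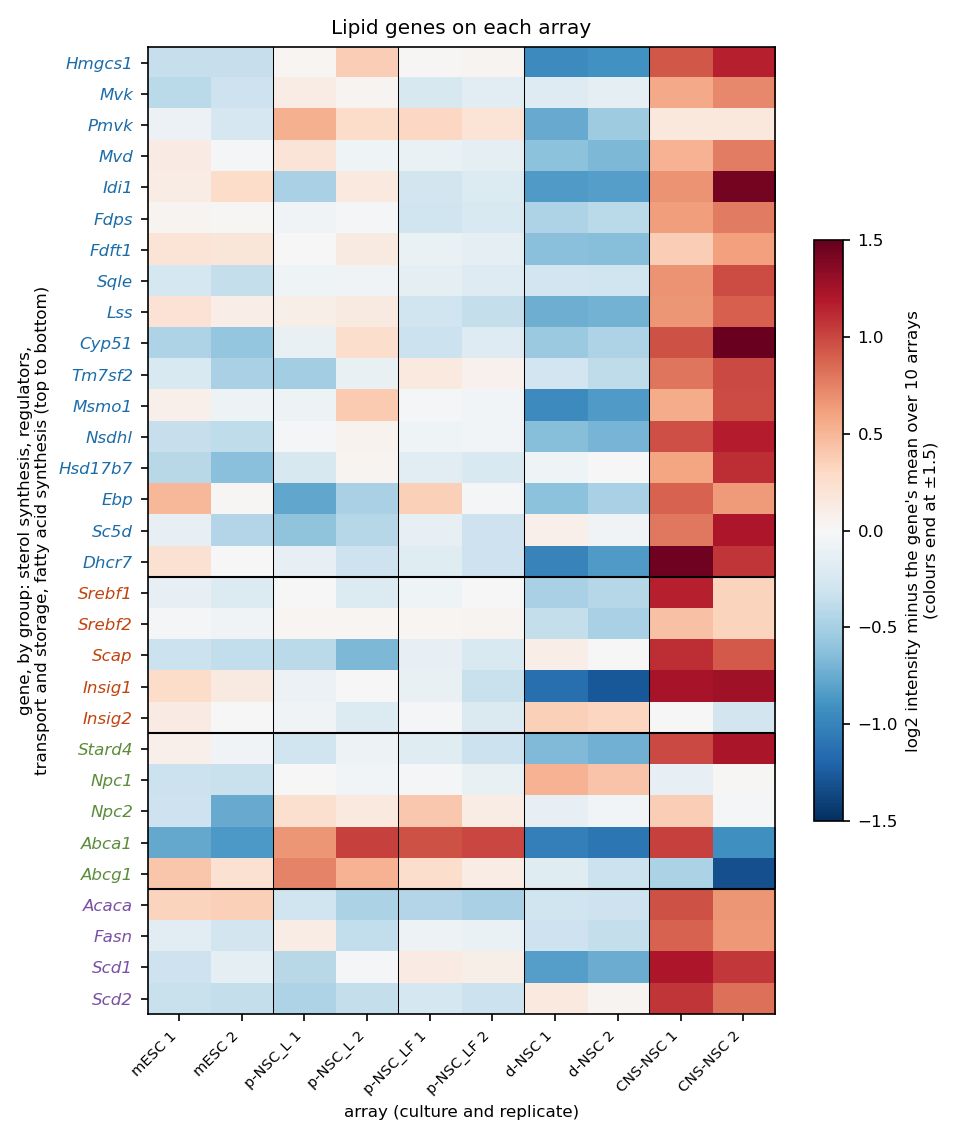
Heat map of the 31 lipid genes (rows, grouped by role) on the 10 arrays (columns), as log2 intensity minus the gene's mean over the arrays. The CNS-NSC columns are red for most rows, with both arrays above the other 8 for 25 of 31 genes, and the d-NSC columns are blue for many, with both arrays below the other 8 for 16.

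Averaged over the 17 sterol synthesis enzymes, the log2 level was 10.16 and 10.04 in mESC, 10.11 and 10.25 in p-NSC_L, 10.14 and 10.10 in p-NSC_LF, 9.67 and 9.71 in d-NSC, and 10.95 and 11.19 in CNS-NSC. The first 3 cultures overlapped, d-NSC lay below them and CNS-NSC above. The 5 regulators averaged 10.22 to 10.31 in mESC, 10.11 to 10.22 in p-NSC_L, 10.18 to 10.27 in p-NSC_LF, 9.95 to 10.01 in d-NSC and 10.84 to 11.11 in CNS-NSC. The 4 fatty acid synthesis enzymes lay between 11.36 and 11.60 in the R1-derived cultures and at 12.74 and 12.50 in CNS-NSC. The 5 transport genes followed another pattern, at 9.41 to 9.58 in mESC, 10.03 to 10.08 in p-NSC_L, 9.93 to 10.05 in p-NSC_LF, 9.41 to 9.47 in d-NSC and 9.56 to 10.12 in CNS-NSC.

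**Figure D2:**
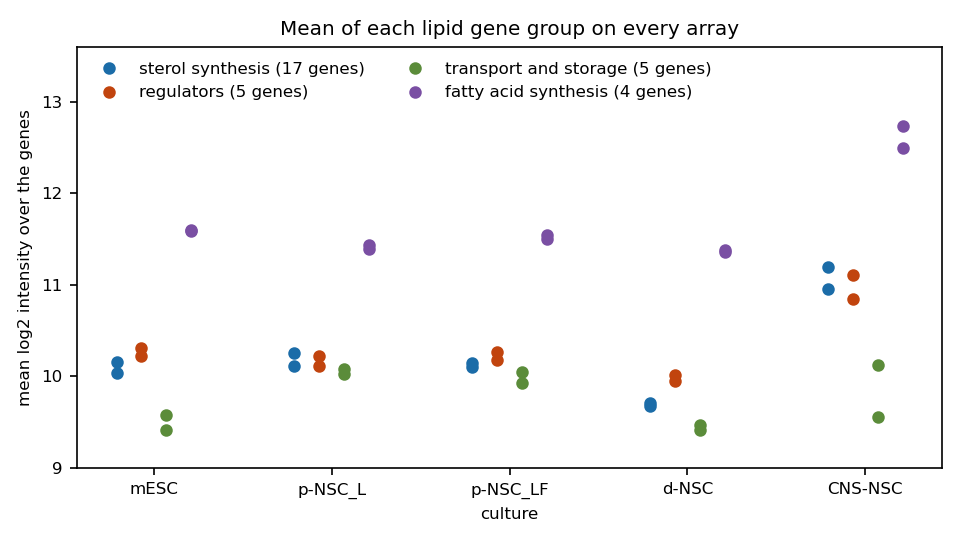
Mean log2 intensity (vertical axis) over the genes of each role on every array, by culture; each point is 1 array. The sterol synthesis points lie at 9.67 and 9.71 in d-NSC and at 10.95 and 11.19 in CNS-NSC, while the transport points are highest in the primitive cultures and 1 of the CNS-NSC arrays.

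The largest contrast was between d-NSC and CNS-NSC, which asked how neural stem cells made from ES cells compare with those taken from the embryonic brain. The 2 cultures also differed in strain and in B27, which cannot be told apart from their origin. All 17 sterol synthesis enzymes were lower in d-NSC, with a median difference of -1.29 where the median of all genes was -0.01. So were 4 of the 5 regulators and all 4 fatty acid synthesis enzymes, while the transport genes were mixed, with 1 higher, 1 lower and 3 not called. In all, 26 of the 31 genes were lower and 2 higher, where 16.5% of all genes were lower and 17.6% higher. The members' median difference was -1.13. Of the 28 calls, 27 held under every alternative tried, the exception being Insig2.

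Several marker lists differed between these cultures as well, and their part in the lipid result was not tested. Of 9 ES cell markers 8 were higher in d-NSC (list mean 9.99 and 9.96, against 7.06 and 7.10 in CNS-NSC). Of 11 neural stem and progenitor markers 2 were higher and 5 lower in d-NSC. Of 6 neuron markers 3 were higher and 1 lower, and of 4 astroglia markers 2 were lower. The oligodendrocyte-lineage list had 2 of 5 measured markers lower in d-NSC, and its mean was 7.97 and 7.92 in d-NSC against 10.64 and 9.90 in CNS-NSC. Olig2 stood at 8.34 and 8.27 in d-NSC, against 12.54 and 12.72 in CNS-NSC. Of 12 fibroblast markers 9 were higher and 2 lower in d-NSC (list mean 8.58 and 8.52, against 7.59 and 7.65 in CNS-NSC), and of 12 endoderm markers 9 were higher (8.21 and 8.18, against 7.31 and 7.40). Of the 4 proliferation markers Mcm2 was higher in d-NSC (12.11 and 12.01, against 11.14 and 11.45 in CNS-NSC), Mki67 was lower (11.59 and 11.53, against 12.29 and 12.42), and the other 2 did not pass. In such bulk samples, fewer cells of a type and less RNA per cell cannot be told apart.

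The step to d-NSC, against p-NSC_LF, asked what changes when Lif is withdrawn, EGF and B27 are added and FGF is at 20 in place of 10 ng/ml. Sterol synthesis enzymes fell: 10 of the 17 were lower, none higher, with a median of -0.51 against -0.01 for all genes. Among the 31 genes 15 fell and 3 rose (Insig2, Npc1 and Scd2), where 19.3% of all genes fell and 19.3% rose. The sterol enzymes that did not pass the test were Mvk, Idi1, Fdps, Sqle, Cyp51, Hsd17b7 and Sc5d, with differences from -0.60 to 0.23. The calls for Hmgcs1, Pmvk, Fdft1, Msmo1, Nsdhl, Dhcr7, Srebf2, Insig1, Npc1 and Scd1 held under every alternative, while those for Mvd, Lss, Tm7sf2, Ebp, Insig2, Stard4 and Scd2 were lost in at least 1 fit without 1 array. In the same step 10 of 12 fibroblast markers and 7 of 12 endoderm markers rose. The fibroblast list mean was 8.58 and 8.52 in d-NSC, against 7.42 and 7.40 in p-NSC_LF. Of 11 neural stem and progenitor markers 8 rose and 1 fell, and of 6 neuron markers 5 rose and 1 fell. The part of these lists in the result was not tested.

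Against mESC, a comparison that shares the d-NSC arrays with the 2 above, d-NSC had 16 of the 31 genes lower and 4 higher, where 19.9% of all genes were lower and 20.7% higher. Of the sterol enzymes 11 fell and Hsd17b7 rose, with a median of -0.48, and the Hsd17b7 call was lost in each fit without 1 array. Mvk, Sqle, Cyp51, Tm7sf2 and Sc5d did not pass the test. This comparison spans serum, feeders, Lif, B27 and growth factors at once. Of the markers, 10 of 12 fibroblast, 8 of 12 endoderm and 2 of 5 oligodendrocyte-lineage genes were higher in d-NSC. The fibroblast list mean was 8.58 and 8.52 in d-NSC, against 7.27 and 7.39 in mESC. Of 11 neural stem and progenitor markers 8 were higher and 0 lower, and of 6 neuron markers 4 were higher and 1 lower. All 9 ES cell markers were lower. The part of these lists in the result of this comparison was not tested. Of its 20 calls 11 held under every alternative, and 13 genes were called without d-NSC replicate 1.

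CNS-NSC against mESC had 24 of the 31 genes higher and 1 lower (Abcg1), where 21.7% of all genes were higher and 22.1% lower. Of the sterol enzymes 14 rose, and the other 3, Pmvk, Fdft1 and Ebp, differed by 0.32, 0.30 and 0.50 with adjusted p of 0.067, 0.052 and 0.055 by limma. The calls for Idi1, Npc2 and Acaca were lost in at least 1 fit without 1 array. The sterol median was 1.00, against 0.04 for all genes. Of 5 measured oligodendrocyte-lineage markers 4 rose in the same comparison, as did 10 of 11 neural stem and progenitor and 3 of 4 astroglia markers. All 9 ES cell markers fell, and the part of these lists was not tested.

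The passage into primitive neural stem cells moved few of the genes. In p-NSC_L against mESC 6 of the 31 rose (Hmgcs1, Mvk, Pmvk, Nsdhl, Npc2 and Abca1) and 2 fell (Ebp and Acaca), where 6.56% of all genes rose and 6.79% fell. In the same comparison 5 of 12 endoderm markers and 4 of 12 fibroblast markers rose, and 2 fibroblast markers fell; their part was not tested. The fibroblast gene Dcn stood at 8.79 and 10.41 in p-NSC_L, against 6.06 and 6.48 in mESC. In p-NSC_LF against mESC 3 rose (Pmvk, Npc2 and Abca1) and 3 fell (Lss, Insig1 and Acaca), where 7.85% of all genes rose and 7.41% fell. Only the Acaca call held in both under every alternative, and leaving out 1 array at a time left 2 to 5 calls in the first comparison and 1 to 2 in the second. Between p-NSC_LF and p-NSC_L limma called 0 of the 31 genes, as did the unmoderated test, where 1.10% of all genes were higher and 0.677% lower. At an unadjusted p below 0.05, 4 were higher and 3 lower.

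**Figure D3:**
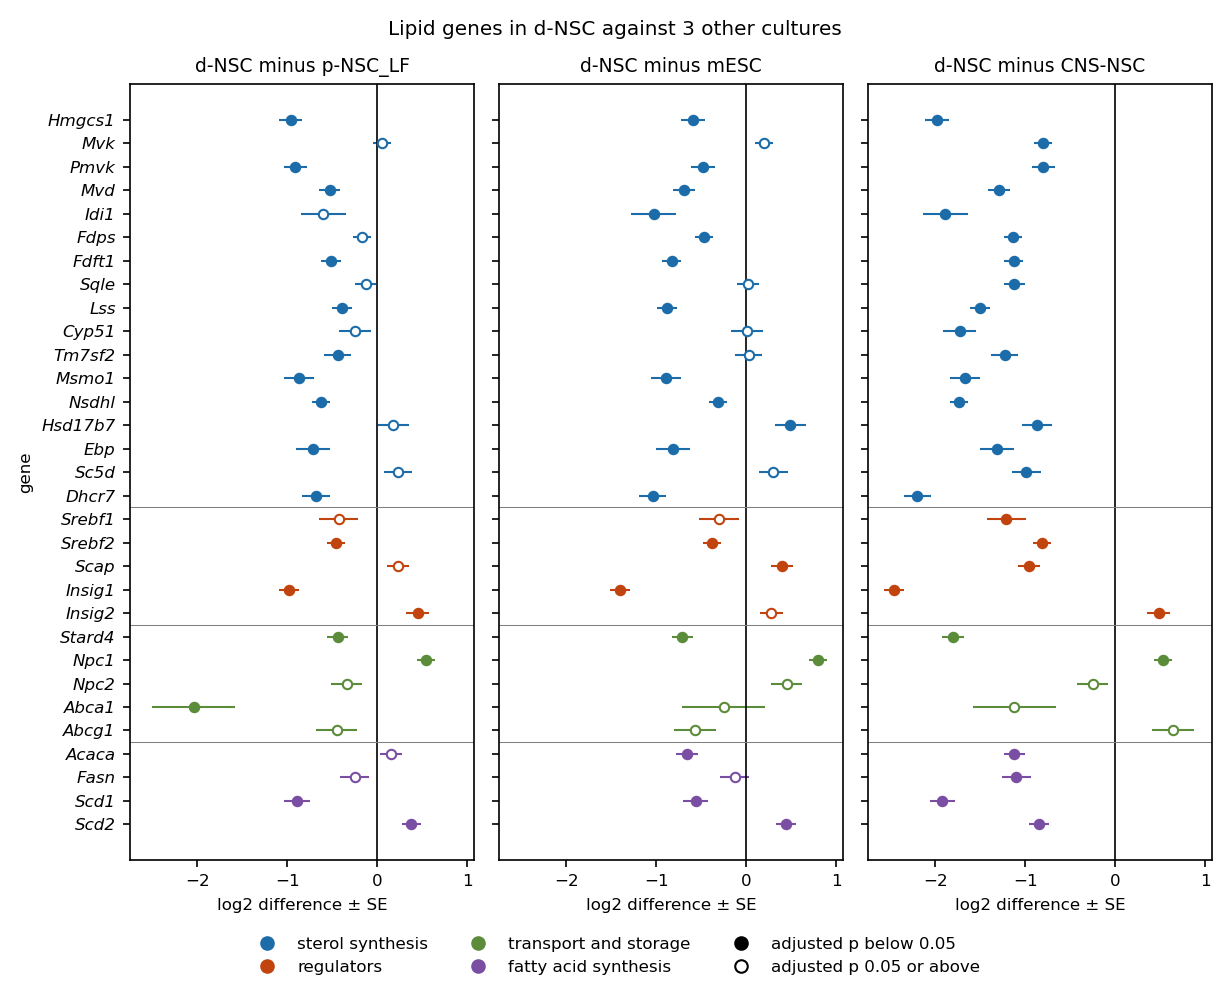
Log2 difference ± SE (limma, 2 arrays per group) of each of the 31 genes in d-NSC minus p-NSC_LF, d-NSC minus mESC and d-NSC minus CNS-NSC; filled points have an adjusted p below 0.05 and colours give the role. Against CNS-NSC every sterol synthesis enzyme lies left of 0, between -2.20 and -0.80, while Insig2 and Npc1 lie right of 0 with filled points.

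Among the enzymes that lead to the isoprenoids, Hmgcs1 condenses acetyl-CoA units into HMG-CoA at the head of the pathway. Its log2 level was 11.26 on both mESC arrays, 11.63 and 11.98 in p-NSC_L, 11.62 and 11.65 in p-NSC_LF, 10.65 and 10.70 in d-NSC, and 12.54 and 12.77 in CNS-NSC. The d-NSC arrays were the lowest and the CNS-NSC arrays the highest, with no overlap. Hmgcs1 fell by 0.96 ± 0.13 in d-NSC against p-NSC_LF (1.95-fold, adjusted p = 2.1e-04 by limma) and was 3.95-fold lower in d-NSC than in CNS-NSC (-1.98 ± 0.13, adjusted p = 1.5e-06). In p-NSC_L it rose by 0.54 ± 0.13 over mESC (adjusted p = 0.021 by limma), a call lost in 3 of the 4 fits without 1 array. Among the R1-derived cultures its levels were highest in p-NSC_L and p-NSC_LF, which overlapped.

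Mvk and Pmvk, the kinases that phosphorylate mevalonate in turn, parted in d-NSC. Pmvk had 7.86 and 8.08 in d-NSC, against 8.93 and 8.82 in p-NSC_LF, and fell by 0.91 ± 0.13 (adjusted p = 2.5e-04 by limma). Mvk had 9.36 and 9.42 in d-NSC, against 9.31 and 9.38 in p-NSC_LF, a difference of 0.05 ± 0.10 that did not pass the test. Pmvk was also the sterol enzyme that did not peak in CNS-NSC: its levels there were 8.77 and 8.77, below the 9.15 and 8.89 of p-NSC_L. Mvk stood at 10.12 and 10.27 in CNS-NSC, against 9.14 and 9.24 in mESC, a 2.00-fold rise (1.00 ± 0.10, adjusted p = 2.0e-05 by limma).

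Mvd, which decarboxylates mevalonate diphosphate, had 8.71 and 8.65 in d-NSC, against 9.84 and 10.09 in CNS-NSC, and was 2.44-fold lower (-1.29 ± 0.12). Idi1, which isomerises the resulting isoprenoid unit, had 9.56 and 9.59 in d-NSC, against 11.08 and 11.85 in CNS-NSC, and was 3.72-fold lower (-1.89 ± 0.25, adjusted p = 2.0e-04 by limma). Both d-NSC arrays were below all others for each gene. Idi1 was also the most uneven of the sterol enzymes between replicates, with 11.08 and 11.85 in CNS-NSC and 9.92 and 10.56 in p-NSC_L. Its second probe set gave the same order of cultures, with means of 9.42 in d-NSC and 11.39 in CNS-NSC. Fdps, which builds farnesyl diphosphate, had a difference of -0.17 ± 0.10 in d-NSC against p-NSC_LF that did not pass, and fell by 0.47 ± 0.10 against mESC (adjusted p = 0.0033 by limma).

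Of the enzymes that make and close squalene, Fdft1, which joins farnesyl units into squalene, stood at 11.57 and 11.56 in d-NSC, against 12.10 and 12.05 in p-NSC_LF, and fell by 0.51 ± 0.11 (adjusted p = 0.0042 by limma). Lss, the lanosterol synthase, had 10.11 and 10.00 in mESC, 9.98 and 10.03 in p-NSC_L, and 9.60 and 9.54 in p-NSC_LF. It had 9.16 and 9.19 in d-NSC, and 10.56 and 10.79 in CNS-NSC. The mESC and p-NSC_L arrays overlapped and the later cultures did not. Lss fell by 0.88 ± 0.11 in d-NSC against mESC (adjusted p = 1.2e-04 by limma). Its difference of -0.44 ± 0.11 in p-NSC_LF against p-NSC_L did not pass (adjusted p = 0.085 by limma). It fell by 0.39 ± 0.11 in d-NSC against p-NSC_LF (adjusted p = 0.017 by limma), a call that did not hold under every alternative. Sqle, the squalene epoxidase, did not follow: its d-NSC levels of 10.56 and 10.54 lay within the mESC levels of 10.58 and 10.48, and against mESC it passed the test in CNS-NSC alone, at 11.52 and 11.82.

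After lanosterol, the enzymes did not all fall in d-NSC. Msmo1, which removes methyl groups at carbon 4, had 10.65 and 10.76 in d-NSC, against 11.59 and 11.57 in p-NSC_LF, and fell by 0.87 ± 0.17 (adjusted p = 0.0026 by limma). Nsdhl, its partner in the same demethylation, had 10.24 and 10.18 in d-NSC, against 10.82 and 10.84 in p-NSC_LF, and fell by 0.62 ± 0.10 (adjusted p = 8.6e-04). Hsd17b7, the ketoreductase that completes that demethylation, had 9.73 and 9.80 in d-NSC, against 9.62 and 9.56 in p-NSC_LF, a difference of 0.18 ± 0.17 that did not pass. Enzymes of the same reaction sequence differed in whether they passed the test, and the difference between them was not tested.

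Cyp51, the lanosterol demethylase, had 9.92 and 10.01 in d-NSC, against 10.01 and 9.90 in mESC, and these overlapped. In CNS-NSC it reached 11.43 and 11.96, a 3.34-fold rise over mESC (1.74 ± 0.18, adjusted p = 2.0e-05 by limma), the largest rise of the 31 genes in that comparison. Tm7sf2, a sterol reductase, and Sc5d, a desaturase, also rose in CNS-NSC over mESC and did not pass in d-NSC against mESC. Tm7sf2 fell by 0.44 ± 0.15 in d-NSC against p-NSC_LF (adjusted p = 0.044 by limma), a call that did not hold under every alternative. Sc5d stood at 9.80 and 9.68 in d-NSC, 10.52 and 10.94 in CNS-NSC, and 9.60 and 9.29 in mESC. Sc5d was 1.98-fold lower in d-NSC than in CNS-NSC (-0.99 ± 0.16) and differed from mESC by 0.30 ± 0.16, which did not pass.

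Ebp, the sterol isomerase, dipped in p-NSC_L. It had 9.64 and 9.16 in mESC, 8.36 and 8.66 in p-NSC_L, 9.50 and 9.11 in p-NSC_LF, 8.53 and 8.66 in d-NSC, and 10.03 and 9.78 in CNS-NSC. The p-NSC_L and d-NSC arrays lay below the rest and overlapped each other. The fall in p-NSC_L against mESC was 0.89 ± 0.19 (adjusted p = 0.013 by limma), and it was lost in 2 of the 4 fits without 1 array and in the unmoderated test. The difference of p-NSC_LF from p-NSC_L, 0.79 ± 0.19, did not pass (adjusted p = 0.073 by limma).

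Dhcr7, the reductase that makes cholesterol from its last precursor, showed the largest difference of the sterol enzymes. Its levels were 10.46 and 10.23 in mESC, 10.10 and 9.91 in p-NSC_L, 10.05 and 9.92 in p-NSC_LF, 9.22 and 9.38 in d-NSC, and 11.69 and 11.30 in CNS-NSC. The primitive cultures overlapped, d-NSC was below all others and CNS-NSC above. Dhcr7 was 4.59-fold lower in d-NSC than in CNS-NSC (-2.20 ± 0.15, adjusted p = 1.9e-06 by limma), and it fell by 0.68 ± 0.15 against p-NSC_LF and by 1.04 ± 0.15 against mESC.

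**Figure D4:**
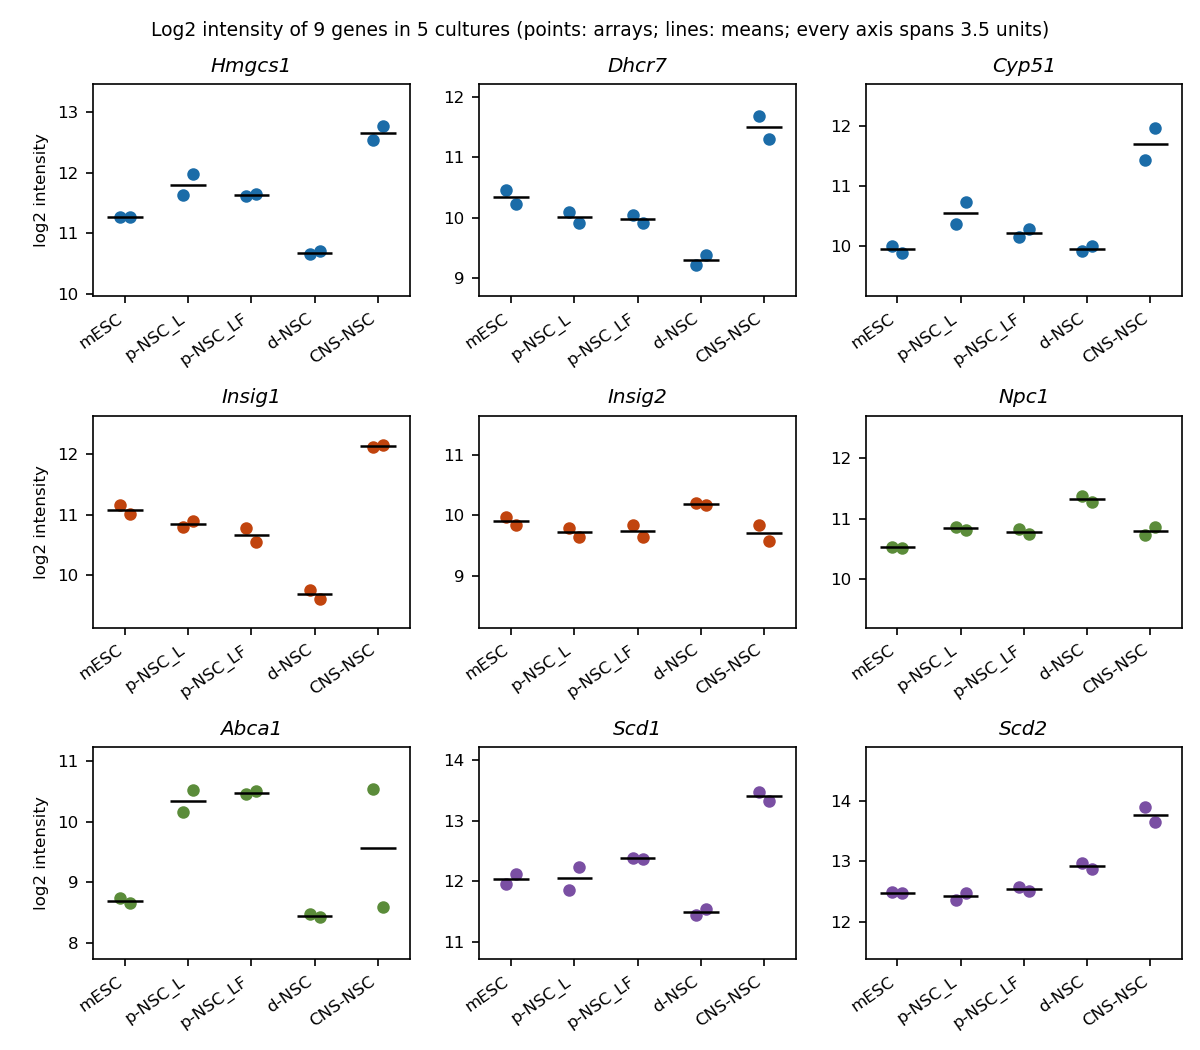
Log2 intensity of 9 genes in the 5 cultures; points are single arrays and lines the means of 2, and every panel spans the same range of log2 units. Insig1 is lowest in d-NSC (9.75 and 9.61) where Insig2 is highest (10.21 and 10.18), Scd1 and Scd2 move apart in d-NSC, and the Abca1 replicates of CNS-NSC lie at 10.54 and 8.59.

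Among the regulators, Insig1, which retains SREBPs in the endoplasmic reticulum and is itself an SREBP target, had the largest difference of all 31 genes. It had 11.15 and 11.01 in mESC, 10.79 and 10.89 in p-NSC_L, 10.77 and 10.55 in p-NSC_LF, 9.75 and 9.61 in d-NSC, and 12.12 and 12.15 in CNS-NSC. No 2 groups overlapped, and the primitive cultures were the closest pair. Insig1 was 5.49-fold lower in d-NSC than in CNS-NSC (-2.46 ± 0.11, adjusted p = 1.4e-07 by limma), 1.97-fold lower than in p-NSC_LF (-0.98 ± 0.11, adjusted p = 7.5e-05) and 2.64-fold lower than in mESC (-1.40 ± 0.11, adjusted p = 6.6e-06).

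Insig2, the paralogue with the same retention role, went the other way. It had 9.98 and 9.85 in mESC, 9.80 and 9.65 in p-NSC_L, 9.84 and 9.64 in p-NSC_LF, 10.21 and 10.18 in d-NSC, and 9.85 and 9.58 in CNS-NSC. Both d-NSC arrays lay above the rest, and mESC lay above both primitive cultures and overlapped CNS-NSC. Insig2 rose by 0.45 ± 0.13 in d-NSC against p-NSC_LF (adjusted p = 0.017 by limma) and was higher by 0.48 ± 0.13 than in CNS-NSC (adjusted p = 0.014). Each call was lost in 3 of the 4 fits that left out 1 array, with adjusted p of 0.0715 to 0.1391 against p-NSC_LF and 0.0662 to 0.0923 against CNS-NSC.

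Srebf2, the SREBP most tied to sterol synthesis, had 10.96 and 10.83 in d-NSC, against 11.35 and 11.36 in p-NSC_LF and 11.75 and 11.65 in CNS-NSC. It fell by 0.46 ± 0.10 against p-NSC_LF (adjusted p = 0.0034 by limma) and was lower by 0.81 ± 0.10 than in CNS-NSC (adjusted p = 1.1e-04). Srebf1, which also governs fatty acid genes, had 9.21 and 9.27 in d-NSC, against 9.64 and 9.70 in p-NSC_LF, a difference of -0.43 ± 0.22 that did not pass. Its CNS-NSC replicates, 10.87 and 10.03, lay apart, and it was 2.32-fold lower in d-NSC than in that culture (-1.21 ± 0.22, adjusted p = 0.0015 by limma).

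Scap, the escort of SREBPs, had 9.95 and 9.86 in d-NSC, against 9.73 and 9.62 in p-NSC_LF and 9.53 and 9.49 in mESC, so that its d-NSC arrays were above the other R1-derived cultures. It rose by 0.40 ± 0.12 over mESC (adjusted p = 0.025 by limma), a call lost in each of the 4 fits without 1 array, and did not pass against p-NSC_LF. In CNS-NSC it reached 10.96 and 10.77.

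Of the transport genes, Stard4, a soluble carrier that moves sterol between membranes, followed the synthesis enzymes. It had 8.73 and 8.67 in d-NSC, against 9.21 and 9.07 in p-NSC_LF and 10.38 and 10.61 in CNS-NSC, and was 3.47-fold lower in d-NSC than in CNS-NSC (-1.80 ± 0.12, adjusted p = 2.1e-06 by limma). Npc1, the membrane protein that exports cholesterol from lysosomes, was highest in d-NSC. Its levels were 10.53 and 10.52 in mESC, 10.86 and 10.82 in p-NSC_L, 10.83 and 10.74 in p-NSC_LF, 11.38 and 11.28 in d-NSC, and 10.73 and 10.87 in CNS-NSC. Npc1 rose in d-NSC by 0.54 ± 0.10 over p-NSC_LF (adjusted p = 0.0016 by limma) and by 0.80 ± 0.10 over mESC (adjusted p = 1.2e-04) and was higher by 0.53 ± 0.10 than in CNS-NSC (adjusted p = 0.0021), and these calls held under every alternative. Npc2, its soluble partner in the lysosome, did not pass in any of these 3 comparisons; it had 10.05 and 10.13 in d-NSC, 10.58 and 10.29 in p-NSC_LF, 10.54 and 10.14 in CNS-NSC, and 9.86 and 9.42 in mESC.

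Abca1, the pump that loads cholesterol onto apolipoproteins, was high in the primitive cultures. It had 8.74 and 8.65 in mESC, 10.17 and 10.53 in p-NSC_L, 10.46 and 10.51 in p-NSC_LF, 8.48 and 8.42 in d-NSC, and 10.54 and 8.59 in CNS-NSC. The CNS-NSC replicates differed by 1.95, one lying with the primitive cultures and the other with mESC, and this widened the SE of every Abca1 difference. Abca1 rose 3.15-fold in p-NSC_L (1.65 ± 0.46, adjusted p = 0.039 by limma) and 3.46-fold in p-NSC_LF (1.79 ± 0.46, adjusted p = 0.026) over mESC, calls lost whenever 1 array of either group was left out. It fell 4.10-fold in d-NSC against p-NSC_LF (-2.04 ± 0.46, adjusted p = 0.0050 by limma), a call lost in the unmoderated test alone. The comparisons with CNS-NSC turned on which of its arrays was used. In d-NSC against CNS-NSC Abca1 differed by -1.12 ± 0.46 (adjusted p = 0.089 by limma), by -0.14 without CNS-NSC replicate 1 (adjusted p = 0.5763) and by -2.09 without CNS-NSC replicate 2 (adjusted p = 9.9e-06). In CNS-NSC against mESC it differed by 0.87 ± 0.46 (adjusted p = 0.16 by limma), by -0.11 without CNS-NSC replicate 1 (adjusted p = 0.6553) and by 1.84 without CNS-NSC replicate 2 (adjusted p = 1.2e-05).

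Abcg1, the pump that passes cholesterol to lipoprotein particles, did not share that pattern. Its levels were 9.31 and 9.12 in mESC, 9.64 and 9.41 in p-NSC_L, 9.16 and 9.01 in p-NSC_LF, 8.71 and 8.57 in d-NSC, and 8.42 and 7.58 in CNS-NSC. It was the single gene of the 31 that fell in CNS-NSC against mESC (-1.21 ± 0.23, adjusted p = 0.0013 by limma).

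Among the fatty acid enzymes, Acaca, the acetyl-CoA carboxylase that commits carbon to fatty acids, was lower in p-NSC_L, p-NSC_LF and d-NSC than in mESC. It had 10.42 and 10.44 in mESC, 9.78 and 9.61 in p-NSC_L, 9.64 and 9.60 in p-NSC_LF, 9.78 and 9.77 in d-NSC, and 11.04 and 10.74 in CNS-NSC. The 6 arrays of the 3 derived cultures lay close together, below mESC. Acaca fell by 0.74 ± 0.12 in p-NSC_L (adjusted p = 0.0031 by limma), by 0.81 ± 0.12 in p-NSC_LF (adjusted p = 0.0016) and by 0.66 ± 0.12 in d-NSC (adjusted p = 0.0013). These 3 comparisons share the mESC arrays. Its second probe set gave means of 9.24 in mESC, 8.51 in p-NSC_L, 8.29 in p-NSC_LF, 8.68 in d-NSC and 9.71 in CNS-NSC. Fasn, the synthase that follows, had 11.32 and 11.28 in d-NSC, against 12.52 and 12.28 in CNS-NSC, and was 2.15-fold lower (-1.10 ± 0.16, adjusted p = 3.4e-04 by limma).

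The stearoyl-CoA desaturases Scd1 and Scd2, which put a double bond into saturated fatty acids, parted in d-NSC. Scd1 had 11.44 and 11.53 in d-NSC, against 12.39 and 12.36 in p-NSC_LF, and fell by 0.89 ± 0.14 (adjusted p = 4.8e-04 by limma). Scd2, the main isoform of mouse brain, had 12.98 and 12.87 in d-NSC, against 12.57 and 12.51 in p-NSC_LF, and rose by 0.38 ± 0.11 (adjusted p = 0.021). The Scd2 call was lost in each fit without 1 array, with adjusted p of 0.0565 to 0.1359. In CNS-NSC both were higher than in the other 8 arrays, Scd1 at 13.48 and 13.33 and Scd2 at 13.90 and 13.65.

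Other genes of lipid handling, listed by name, were counted as well. Of 9 further sterol-related genes, 5 were lower in d-NSC than in CNS-NSC and none higher, where 16.5% of all genes were lower and 17.6% higher. Acat1, the mitochondrial acetoacetyl-CoA thiolase, was 6.03-fold lower (-2.59 ± 0.16, adjusted p = 1.0e-06 by limma), and Aacs, which activates acetoacetate in the cytosol, 2.23-fold lower (-1.15 ± 0.11, adjusted p = 2.1e-05). Aacs rose by 0.69 ± 0.11 in p-NSC_L over mESC (adjusted p = 0.0029). Of 38 further fatty acid and glycerolipid genes, 22 were lower in d-NSC than in CNS-NSC and 4 higher, against the same shares of all genes. Among the lower ones were Acss2, which makes cytosolic acetyl-CoA from acetate (-2.43 ± 0.10), but also Cpt1a, the gate of mitochondrial fatty acid oxidation (-3.12 ± 0.12), and Acadl, an oxidation enzyme (-2.95 ± 0.16).

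Uptake genes did not fall as a set in d-NSC. Against p-NSC_LF, 7 of 16 genes of uptake and intracellular sterol transport rose and 5 fell, where 19.3% of all genes rose and 19.3% fell. Vldlr, a lipoprotein receptor, rose 5.61-fold (2.49 ± 0.16, adjusted p = 1.2e-06 by limma), and Lrp8, a related receptor, rose 2.17-fold (1.12 ± 0.16, adjusted p = 2.6e-04). Scarb1, the receptor for high-density lipoprotein, fell by 0.79 ± 0.10 (adjusted p = 1.2e-04), and Gramd1b, which moves cholesterol from the plasma membrane inward, by 1.61 ± 0.10 (adjusted p = 8.7e-07). Of 12 genes tied to liver X receptors and oxysterols, 3 rose and 2 fell, close to the 19.3% of all genes that did either, and against CNS-NSC 2 were higher and 3 lower, close to 17.6% and 16.5% of all genes. Of the 38 fatty acid and glycerolipid genes 12 rose and 14 fell in d-NSC against p-NSC_LF, where 19.3% of all genes rose and 19.3% fell. Dgat2, which completes triglycerides, rose by 1.61 ± 0.14 and Fads2, a desaturase of polyunsaturated fatty acids, by 1.26 ± 0.14. Fabp7, also one of the neural stem and progenitor markers, rose most, from 6.93 and 6.96 in p-NSC_LF to 13.95 and 14.02 in d-NSC. The largest falls were those of Cpt1a and Elovl7. Cpt1a stood at 8.09 and 8.14 in d-NSC, against 10.74 and 10.75 in p-NSC_LF. Elovl7 stood at 7.61 and 7.78 in d-NSC, against 10.12 and 9.83 in p-NSC_LF.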

How the data were processed

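RNA from 10 cultures was hybridised to Affymetrix whole-transcript gene arrays, per the labels' protocols. The authors deposited log2 intensity values for 35556 probe sets; RMA and Partek (versions not given) made them, per the submitters' processing notes. RMA compresses differences of dim probe sets. No header gives the log base; values between 2.07 and 14.74 fit log2, with array medians of 7.66 to 7.76. Scan batches were not analysed here.

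Of the probe sets, 21789 had 1 gene symbol in the platform annotation; the highest-mean one per gene gave 19938 genes. No value was filtered or rescaled. limma 3.58.1 in R 4.3.3 fitted 1 mean per culture over all arrays (5 residual and 4.9 prior degrees of freedom), with Benjamini-Hochberg adjustment over all genes and a threshold of 0.05. The fit was tested on simulated data. Only 2 arrays per culture limit the precision; the median SE of a difference was 0.13. Tables, motif searches and plots were made with Python 3.11.15, pandas 2.3.3 and matplotlib 3.10.9.

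The members, the gene and marker lists and the tests were chosen with earlier results of these data known. All members could be named; of each other pathway list, up to 3 higher and 3 lower called genes per comparison with the largest differences could be. Alternatives were quantile normalization, leaving out the dimmest 30% of genes, a trended prior, an unmoderated test, a replicate block, the mean of a gene's probe sets, only the 2 cultures compared, and leaving out each array in turn. The main fit did not pair samples by replicate number.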

Additional observations from a re-analysis of the deposited data

How the results depend on the processing

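No called difference of the 31 genes changed direction under any alternative. The counts of genes called moved by over 1.5 times in 3 comparisons. For p-NSC_L against mESC, 8 genes were called, 3 by the unmoderated test, 4 with the other 3 cultures left out, and 2 to 5 without 1 array. For p-NSC_LF against mESC, 6 were called, 3 by the unmoderated test, 13 with the other cultures left out, and 1 to 2 without 1 array. For d-NSC against mESC, 20 were called, and 13 to 16 without 1 array. A fit without 1 array takes the lone sample to vary like the other groups, and an unmoderated fit or one with only 2 cultures has fewer degrees of freedom for the spread. The counts for d-NSC against p-NSC_LF (18), d-NSC against CNS-NSC (28), CNS-NSC against mESC (25) and the F test (31) stayed within 1.5 times, and p-NSC_LF against p-NSC_L gave 0 under every alternative.

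The main fit did not use the replicate numbers. Correlations of replicate differences between cultures ran from -0.11 to 0.37, and 6 of 10 were above 0.1. Those 6 were the pairs among mESC, p-NSC_L, p-NSC_LF and CNS-NSC, at 0.14 to 0.37. What replicates of the same number share was not tested. With the replicate number as a block, the counts were 9 for p-NSC_L against mESC, 0 for p-NSC_LF against p-NSC_L, 6 for p-NSC_LF against mESC, 18 for d-NSC against p-NSC_LF, 22 for d-NSC against mESC, 29 for d-NSC against CNS-NSC, 26 for CNS-NSC against mESC and 31 for the F test. The block added the calls of Cyp51 in p-NSC_L against mESC (adjusted p = 0.0276), Idi1 in d-NSC against p-NSC_LF (0.0286), Npc2 (0.0259) and Abcg1 (0.0212) in d-NSC against mESC, Abcg1 in d-NSC against CNS-NSC (0.0147) and Ebp in CNS-NSC against mESC (0.0493). It removed that of Tm7sf2 in d-NSC against p-NSC_LF (0.044, or 0.0506 with the block). Such calls near the threshold rest on 2 arrays per culture. Groups of 2 arrays cannot show which replicate stands apart where they differ, as for Abca1 in CNS-NSC.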
